A study of Mus musculus with 12 samples.

Results

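This account covers the 4 of the 12 bulk RNA-seq samples that came from Sestrin1,2 knockout muscle stem cells before injury and 7 days after it, and asks which genes these cells gained and lost. The members are all samples that the labels give to that genotype and to those days, 2 at each. Muscle stem cells, also called satellite cells, were sorted by flow cytometry from the tibialis anterior, gastrocnemius and quadriceps of C57BL/6J mice aged 2 to 3 months. Before injury is here called day 0, and 4 samples of wild-type mice of the same strain, age and days, 2 per day, served to test where the knockout response differed. The knockout mice are labelled as lacking Sestrin1 and Sestrin2 on both days, so the day 7 against day 0 comparison describes injury in a background without them. The labels do not give the kind of injury, the sex, the surface markers of the sort or the tissue of the deletion, or say whether the 2 samples of a group came from different mice. The p-values therefore measure the spread between these samples, which may be technical.

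Satellite cells lie between the muscle fibre and its basal lamina and are mostly quiescent in resting muscle, where Notch signalling helps to keep them undifferentiated. Injury makes them enter the cell cycle, and their daughters then either fuse into new fibres under the myogenic regulatory factors or return to the niche. Sestrins are stress-induced proteins that restrain mTORC1, in part by sensing leucine through the GATOR complexes, and are also linked to antioxidant and fatty acid metabolism.

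Of 15672 genes tested, 8497 were called at an adjusted p under 0.05, which is 54.2% of the genes. Higher at day 7 were 4321 genes (27.6%) and lower were 4176 (26.6%), and 1854 and 1994 of these changed at least 2-fold. The shares of 27.6% and 26.6% are the background for the list counts below. Both day 7 samples lay outside the range of both day 0 samples for 12036 genes, or 76.8%, so a gene without overlap is the rule here and not a finding. The median log2 fold change over all genes tested was 0.0024, and 50.9% of the calls were higher. On the log2 scale of the authors' TPM (length- and depth-scaled abundance) plus 0.1 the median over all genes was 0.15 and 61.3% of the calls were higher, so small changes depend on the scaling. Depth was 28396780 to 38316894 estimated counts per knockout sample. The correlation across genes of log2 CPM (counts relative to the scaled depth) was 0.983 between the day 0 samples, 0.972 between the day 7 samples and 0.892 to 0.899 across days, genes not being independent replicates. CPM grow with transcript length and are compared within a gene only. Each gene's values are given as the 2 day 0 samples and then the 2 day 7 samples, and the error of a log2 fold change is its SE.

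The deleted genes were checked first. Sesn2 stood at 5.66 and 7.26 CPM in the knockout at day 0 and 2.37 and 1.96 at day 7, against means of 83.4 and 46.9 in wild type, so each knockout sample lay below the wild-type mean of its day. Sesn1 RNA was still counted, at 47.6 and 47.3 CPM at day 0 and 28.6 and 23 at day 7, against means of 72.7 and 77 in wild type. The part of Sesn1 that was deleted is not given, so its level checks nothing. Both fell within the knockout after injury, Sesn1 by 0.88 (SE 0.13, edgeR adjusted p = 3.42e-04) and Sesn2 by 1.56 (SE 0.17, edgeR adjusted p = 6.12e-05) on the log2 scale, while Sesn3, the family member left intact, rose from 1.64 and 2.40 to 8.30 and 7.51 CPM (log2 fold change 1.98 ± 0.26, edgeR adjusted p = 2.22e-04). The call for Sesn2 was lost with all 12 samples in the fit.

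The labelled cell type was checked against 11 satellite cell markers, none of which was at 0. Their summed level was 2464 and 2498 CPM at day 0 and 4026 and 3626 at day 7, with 7 of 11 called higher and 1 lower. Pax7, the transcription factor that defines satellite cells, was low at day 0, at 10.5 and 14.3 CPM, and 23.2 and 26.9 at day 7. Transcripts usually taken as markers of other cells were abundant at day 0. The 7 mural cell markers summed to 13466 and 13815 CPM at day 0 and 4850 and 4866 at day 7, most of it Acta2, smooth muscle actin, at 10438 and 10544 and then 3812 and 3974. The 7 Schwann cell markers fell from 3390 and 3459 to 505 and 421, and 6 of them were called lower, among them Mbp of myelin and the glial factor Sox10. Macrophage markers went from 3048 and 3005 to 497 and 309.6, but day 0 was almost all Lyz2 (3034 and 2990 CPM, then 371 and 266), and 11 of the 15 were called higher at day 7 (3 where at least 10 counts in every sample were required), such as C1qc at 0.157 and 0.0761 and then 18.8 and 6.11. The 12 mature fibre markers rose from 222 and 231 to 5316 and 3484, 10 of 12 called. Endothelial markers differed between the day 7 samples, at 333 and 162 after 501 and 526 at day 0, as did red cell markers, at 78.3 and 190.3 after 212 and 199. Granulocyte and lymphocyte markers stayed under 3 CPM in sum, with S100a9, Ly6g and Nkg7 among those at 0 in all 4 samples. In bulk RNA fewer cells of a type cannot be told apart from less RNA per cell.

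**Figure D1:**
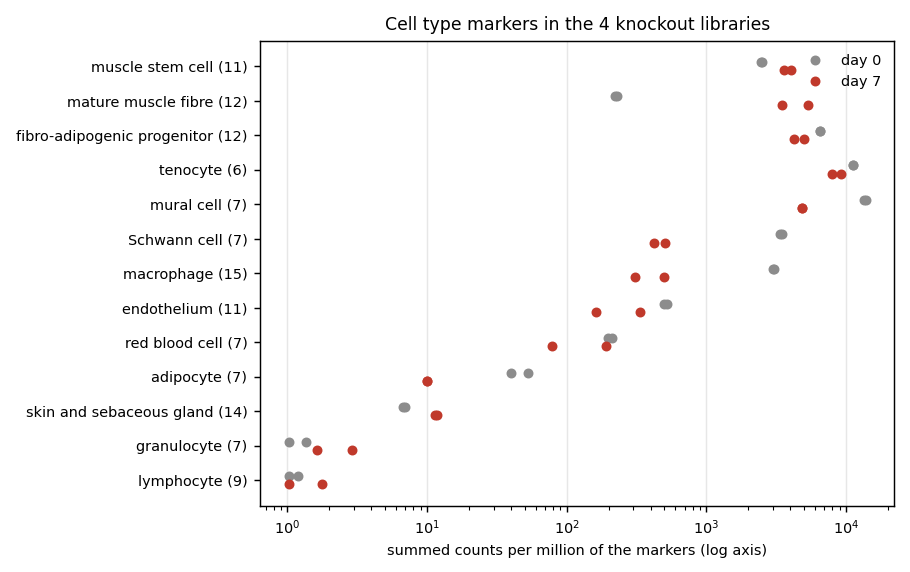
Summed CPM (log axis) of the markers of 13 cell types in the 4 knockout samples, grey for day 0 and red for day 7, 1 point per sample, with the number of markers in brackets. Mature fibre markers rose from 222 and 231 to 5316 and 3484, and Schwann and mural sums were lower at day 7. The macrophage sum, almost all Lyz2 at day 0, was also lower, but 11 of the 15 macrophage markers were called higher.

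The muscle differentiation program was the first of those gained. Among 20 myogenic factors 15 were called higher and 1 lower, beside 27.6% and 26.6% of all genes, with a median log2 fold change of 2.07. Myog, the myogenin factor that commits myoblasts to differentiate, rose from 35.9 and 32.6 to 853 and 781 CPM (log2 fold change 4.57 ± 0.091, edgeR adjusted p = 7.31e-09). Mymk, listed as Tmem8c, the membrane protein that drives myoblast fusion, rose from 8.43 and 7.26 to 211 and 210.2 CPM (log2 fold change 4.74 ± 0.094, edgeR adjusted p = 7.31e-09). Its fusion partner Mymx, listed as Gm7325, went from 0.157 and 0.114 to 45.7 and 48.5 CPM (log2 fold change 8.38, SE 0.25, edgeR adjusted p = 4.67e-08). Myf5, an early determination factor, rose less, from 19 and 19.6 to 88.3 and 95.2 CPM (log2 fold change 2.25 ± 0.091, edgeR adjusted p = 1.70e-07). Pax7 rose by 1.01 (SE 0.16, edgeR adjusted p = 7.25e-04), whereas Pax3 had overlapping values of 0.787 and 1.26 and 0.858 and 2.42 CPM and was not called. The factor called lower was Myod1, the determination factor, chosen for naming after its values were seen, from 161 and 179 to 139 and 127 CPM (log2 fold change -0.36, edgeR adjusted p = 0.0119). No factor was called lower in 7 of 19 alternatives, among them those without knockout day 0 replicate 2 or knockout day 7 replicate 2. In the called genes of this paragraph both day 7 samples lay on the same side of both day 0 samples, as in 76.8% of all genes.

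Contractile genes rose with them. Of 42 sarcomere genes 33 were called higher and 4 lower, beside 27.6% and 26.6% of all genes, median 4.60. Actc1, the cardiac actin used by newly formed fibres, rose from 12.8 and 11.8 to 603 and 651 CPM (log2 fold change 5.67 ± 0.089, edgeR adjusted p = 3.21e-09). Acta1, the adult skeletal actin, rose from 27.9 and 28.7 to 1760 and 1231 CPM (log2 fold change 5.73 ± 0.26, edgeR adjusted p = 4.23e-06). The developmental myosin heavy chains Myh3 (embryonic) and Myh8 (perinatal) were nearly absent at rest, at 0.535 and 0.951 and 0.346 and 0.380 CPM, and reached 360.4 and 302 and 228 and 172 at day 7 (edgeR adjusted p = 1.17e-07 and 5.13e-08). Troponin T of the embryonic and cardiac type, Tnnt2, rose from 2.01 and 1.86 to 182 and 199 CPM (log2 fold change 6.61 ± 0.11, edgeR adjusted p = 4.22e-09). The 4 members called lower, named after their values were seen, were Myom1, Ldb3, Tpm2 and Tpm1, with log2 fold changes of -1.35, -0.90, -1.05 and -0.68. Tropomyosins Tpm1 and Tpm2 are also made in smooth muscle, and the mural markers Acta2 and Myh11 fell in the same samples by 1.43 and 2.03. Their part in the result was not tested, nor was that of adult fibre RNA, of which Ckm went from 5.19 and 7.11 to 212 and 106 CPM with unequal day 7 samples.

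At the endplate and in excitation-contraction coupling 22 of 28 genes were called higher and 3 lower, median 2.90, or 2.71 with the members at the detection floor put at their bound. Chrna1, the alpha subunit of the muscle acetylcholine receptor, rose from 25.2 and 25.9 to 393 and 435 CPM (log2 fold change 4.02 ± 0.079, edgeR adjusted p = 7.31e-09). Chrng, the gamma subunit of the fetal receptor, rose from 0.692 and 0.609 to 80.1 and 95.5 CPM (log2 fold change 7.06 ± 0.23, edgeR adjusted p = 6.08e-08). Chrnb1, the beta subunit, rose less, from 83.1 and 80.1 to 145 and 166 CPM (log2 fold change 0.93 ± 0.078, edgeR adjusted p = 1.27e-05). Cacng1, a subunit of the muscle calcium channel, rose from 0.598 and 0.837 to 87.4 and 85.2 CPM (log2 fold change 6.92 ± 0.20, edgeR adjusted p = 4.17e-08). The 3 called lower, named after their values were seen, were Atp2a2, Casq2 and Jph2 (-1.15, -0.71 and -0.66), genes of the calcium store and its junctions. The promoter of Chrna1 is shown because E-boxes, the sites that myogenic factors bind, are its known feature, and the letters CAGCTG, in capitals, occur at 2 places in it. The sequence is RefSeq's on GRCm38.p6, chr2:73580289-73580588, minus strand, from 250 bases before to 50 after the start.
Chrna1: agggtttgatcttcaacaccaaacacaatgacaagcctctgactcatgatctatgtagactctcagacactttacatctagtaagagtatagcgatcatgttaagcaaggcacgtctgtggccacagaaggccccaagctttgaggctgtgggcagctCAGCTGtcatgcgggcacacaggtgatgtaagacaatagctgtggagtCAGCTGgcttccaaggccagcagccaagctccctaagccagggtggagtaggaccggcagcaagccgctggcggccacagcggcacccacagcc
CAGCTG, a palindrome that reads the same on both strands, was present in 10 of 28 promoters of the sarcomere list (35.7%), in 21.2% of those of genes called higher at least 2-fold, in 16% of those called lower at least 2-fold and in 15.7% of all 8941 tested genes that RefSeq gives 1 promoter under the same symbol. Over all genes called, with no minimum change, the shares were 16.6% of those higher and 15% of those lower. These are shares of letters and not of bound sites.

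**Figure D2:**
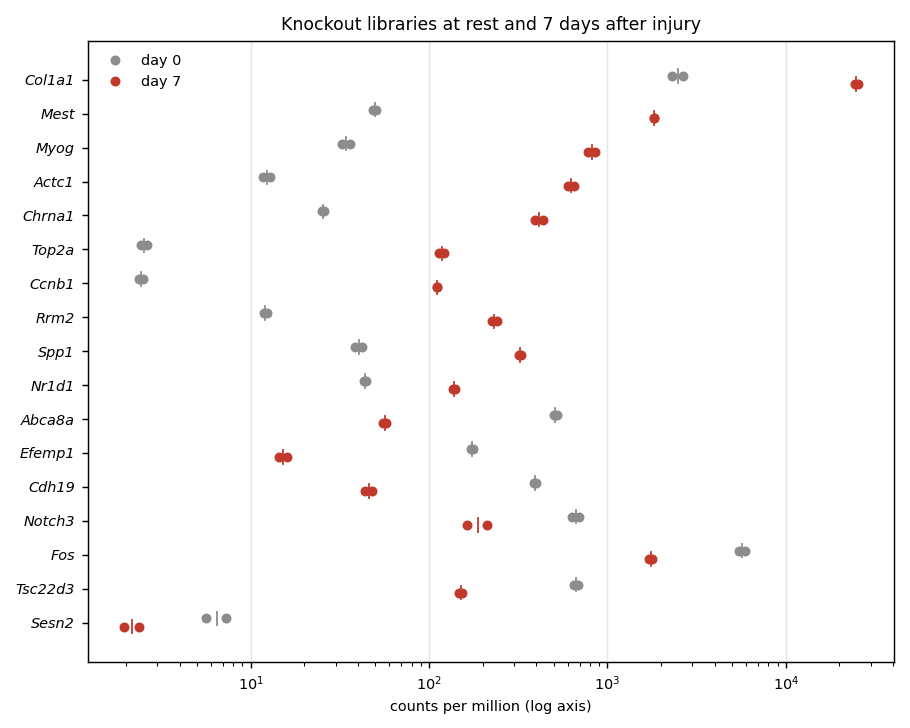
CPM (log axis) of 17 genes in the 4 knockout samples, grey for day 0 and red for day 7, 1 point per sample and a bar at the mean. Col1a1 to Nr1d1 were higher at day 7 and Abca8a to Sesn2 lower. The 2 days did not overlap in any of these genes, as in 76.8% of all genes, and the naming rule required this of some.

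Mitotic genes were higher at day 7. All 46 members of the mitosis list were called higher, beside 27.6% of all genes, with a median log2 fold change of 4.83. Ccnb1, cyclin B1, which with its kinase Cdk1 starts mitosis, rose from 2.36 and 2.51 to 111 and 111 CPM (log2 fold change 5.51 ± 0.12, edgeR adjusted p = 1.22e-08). Cdk1 rose from 1.70 and 2.02 to 68.9 and 79.2 CPM (log2 fold change 5.32 ± 0.15, edgeR adjusted p = 3.37e-08). Top2a, the topoisomerase that untangles chromosomes, rose from 2.42 and 2.62 to 114 and 121 CPM (log2 fold change 5.54 ± 0.1, edgeR adjusted p = 6.23e-09). Tpx2, a spindle assembly factor, rose from 1.70 and 1.94 to 67.9 and 66.6 CPM (log2 fold change 5.21 ± 0.12, edgeR adjusted p = 1.22e-08). Racgap1, which acts in the cleavage of the cell, rose from 9.41 and 8.98 to 113 and 108 CPM (log2 fold change 3.58 ± 0.08, edgeR adjusted p = 1.22e-08). The lower bounds for Kif18b, a mitotic kinesin, and Cdca5, a cohesin regulator also known as sororin, were at least 194-fold and at least 145-fold, from 0 and 0 and 0.0944 and 0.0761 CPM at day 0 to 18 and 22.4 and 15.8 and 14.3 at day 7. Their floor is the CPM of 3 counts, averaged over the 2 samples. In absolute terms mitotic transcripts were scarce at rest, at most a few CPM for the genes named here save Racgap1.

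Replication followed the same course with smaller changes. 40 of 45 genes were called higher and 1 lower, Orc1 of the origin recognition complex (-0.53, named after its value was seen), median 1.82. No member was called lower in 8 of 19 alternatives, among them those without knockout day 0 replicate 1 or 2 or knockout day 7 replicate 1. Rrm2, the ribonucleotide reductase subunit that limits the supply of DNA precursors, rose from 12.3 and 11.8 to 239.8 and 226 CPM (log2 fold change 4.27 ± 0.091, edgeR adjusted p = 1.11e-08). Mcm3, Mcm6 and Mcm2 of the replicative helicase rose by 2.80 (SE 0.085), 2.30 (SE 0.071) and 2.89 (SE 0.11), with edgeR adjusted p of 4.67e-08, 5.08e-08 and 1.46e-07. Mcm3, for example, stood at 13.8 and 14 CPM at day 0 and 101 and 92.4 at day 7. Tk1, thymidine kinase, rose from 1.45 and 1.79 to 29 and 27.4 CPM (log2 fold change 4.13 ± 0.16, edgeR adjusted p = 1.25e-07).

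Promoters of a mitotic and of a replication gene are shown because letters known from each class were more frequent in these lists than among all tested genes. In Top2a (chr11:99024140-99024439, minus strand) the capitals mark TTTGAA or its reverse complement, the core of the cell cycle homology region, and in Mcm3 (chr1:20820263-20820562, minus strand) they mark the E2F letters TTTCCCGC or TTTGGCGC on either strand. Both sequences are RefSeq's, on GRCm38.p6.
Top2a: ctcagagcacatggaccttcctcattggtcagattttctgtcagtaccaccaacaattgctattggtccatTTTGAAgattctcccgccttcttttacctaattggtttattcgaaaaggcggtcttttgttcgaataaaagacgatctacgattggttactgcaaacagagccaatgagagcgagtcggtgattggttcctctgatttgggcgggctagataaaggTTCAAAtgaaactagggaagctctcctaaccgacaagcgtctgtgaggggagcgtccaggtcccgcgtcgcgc
Mcm3: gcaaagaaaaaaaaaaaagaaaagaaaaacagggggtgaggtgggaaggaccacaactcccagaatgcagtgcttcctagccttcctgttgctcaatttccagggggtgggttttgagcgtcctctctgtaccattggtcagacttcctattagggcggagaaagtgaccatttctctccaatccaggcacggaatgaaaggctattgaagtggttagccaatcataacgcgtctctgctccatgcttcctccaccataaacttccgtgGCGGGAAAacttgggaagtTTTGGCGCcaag
TTTGAA was found in 28 of 36 mitosis promoters (77.8%), 12.9% of the replication promoters and 11.9% of all. The E2F letters were in 11 of 31 replication promoters (35.5%), 5.56% of the mitosis promoters and 2.87% of all. The CCAAT box was in 69.4% of the mitosis promoters and 58.1% of the replication promoters, against 38.6% of all. Over all genes called the shares were 3.33% of those higher and 2.77% of those lower for the E2F letters and 13.6% and 9.61% for TTTGAA. With a change of at least 2-fold they were 3.44% and 2.59% for the E2F letters and 16.3% and 10.1% for TTTGAA.

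Of 20 cyclins and inhibitors 10 were called higher and 6 lower, beside 27.6% and 26.6% of all genes, median 0.48. The share lower is close to the background. Cdkn1c, the inhibitor p57 that acts when myoblasts leave the cycle, rose from 161 and 153 to 1036 and 988 CPM (log2 fold change 2.69 ± 0.064, edgeR adjusted p = 1.66e-08). Cdkn1a, the inhibitor p21, fell from 1377 and 1402 to 597 and 619.7 CPM (log2 fold change -1.19 ± 0.058, edgeR adjusted p = 4.83e-07). The kinases Cdk4 and Cdk2 rose by 1.51 (SE 0.056) and 1.45 (SE 0.073), while the D cyclins Ccnd1 and Ccnd2 fell by 0.93 (SE 0.11) and 0.72 (SE 0.062), with edgeR adjusted p of 1.15e-07, 5.90e-07, 1.35e-04 and 1.53e-05. The call for Ccnd1 was lost with all 12 samples in the fit and on log2(TPM + 1) with no filter.

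The quiescence and niche list did not move one way, with 13 of 32 called higher and 14 lower, beside 27.6% and 26.6% of all genes, median -0.0078. On log2(TPM + 1) the number lower was 9 and the median 0.10. Chrdl2, a chordin-like BMP antagonist of resting satellite cells, fell from 77.1 and 70.6 to 7.92 and 8.60 CPM (log2 fold change -3.16 ± 0.096, edgeR adjusted p = 4.67e-08). The adhesion molecule Cadm1 fell from 343 and 339 to 90.0 and 75.3 CPM (log2 fold change -2.04 ± 0.088, edgeR adjusted p = 2.38e-07), and the heparan sulphate proteoglycan Sdc4 fell from 322 and 299.5 to 107 and 113 CPM (log2 fold change -1.49 ± 0.066, edgeR adjusted p = 2.68e-07). Cadherins and an adhesion receptor of the stem cell surface went the other way: Cdh15, M-cadherin, rose from 75 and 79 to 367 and 328 CPM (log2 fold change 2.17 ± 0.091, edgeR adjusted p = 2.00e-07). Vcam1 rose from 147 and 139 to 380.2 and 404 CPM (log2 fold change 1.46 ± 0.071, edgeR adjusted p = 5.03e-07). Calcr, the calcitonin receptor that marks quiescence, overlapped between days, at 22.9 and 23.7 and 14.8 and 24.7 CPM.

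Notch pathway genes were lower more often than higher, 11 against 5 of 25, beside 26.6% and 27.6% of all genes. The median was -0.40, or -0.11 without knockout day 7 replicate 2. Receptors fell together: Notch3 fell from 636 and 695 to 213 and 163 CPM (log2 fold change -1.83 ± 0.12, edgeR adjusted p = 3.38e-06). Notch2 fell by 1.70 (SE 0.12, edgeR adjusted p = 3.38e-06) and Notch1 by 1.46 (SE 0.10, edgeR adjusted p = 4.63e-06). The target Hes1 fell from 199.8 and 207 to 57.1 and 49.3 CPM (log2 fold change -1.93 ± 0.092, edgeR adjusted p = 4.34e-07). Hes6, a relative of Hes1 that antagonises it and marks differentiation, rose from 15.4 and 15.1 to 79.1 and 85.7 CPM (log2 fold change 2.43 ± 0.091, edgeR adjusted p = 1.20e-07). Notch3 is also a mural cell receptor, and the mural marker Cspg4 fell from 385 and 444 to 62 and 41.5 CPM beside it. Its part in the result was not tested.

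Of 26 collagens 16 were called higher and 4 lower, beside 27.6% and 26.6% of all genes, median 1.20. Col1a1, a chain of the main fibrillar collagen, rose from 2309 and 2669 to 25304 and 24459 CPM (log2 fold change 3.32 ± 0.087, edgeR adjusted p = 2.76e-08), its partner Col1a2 rose from 3648 and 4204 to 11271 and 11176 CPM (log2 fold change 1.52 ± 0.076, edgeR adjusted p = 5.63e-07), and Col3a1 of the reticular fibres rose from 702 and 816 to 18230 and 15139 CPM (log2 fold change 4.46 ± 0.13, edgeR adjusted p = 6.08e-08). Col6a1 and Col6a2 of the microfibrillar collagen around fibres rose by 2.34 (SE 0.056) and 2.75 (SE 0.097), with edgeR adjusted p of 1.66e-08 and 9.74e-08. The 4 that fell, named after their values were seen, were Col27a1, Col4a5, Col5a3 and Col4a2 (-1.22, -1.05, -0.58 and -0.55), of which Col4a5 and Col4a2 belong to the basement membrane. Without knockout day 0 replicate 2 the number lower was 2.

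Among 41 other matrix and crosslinking genes 25 were called higher and 12 lower, beside 27.6% and 26.6% of all genes, median 0.82. The share lower, 29.3%, is near the background, and the number lower was 6 with all 12 samples in the fit. Cthrc1, a secreted protein of matrix-forming fibroblasts and repairing tissue, rose from 0.881 and 0.989 to 125 and 161 CPM (log2 fold change 7.26 ± 0.17, edgeR adjusted p = 1.66e-08). Postn, periostin, rose from 979 and 1027 to 6445 and 7512 CPM (log2 fold change 2.80 ± 0.079, edgeR adjusted p = 3.75e-08). Spp1, osteopontin, rose from 42.1 and 38.8 to 321 and 326 CPM (log2 fold change 3.00 ± 0.072, edgeR adjusted p = 1.78e-08). Loxl1, which crosslinks elastin and collagen, rose from 52 and 56.3 to 415 and 464 CPM (log2 fold change 3.02 ± 0.084, edgeR adjusted p = 3.74e-08). Markers of fibro-adipogenic progenitors moved both ways in the same samples, 6 of 12 higher and 5 lower: Pdgfra, their defining receptor, stood at 29.6 and 33.9 and then 55 and 51.9 CPM, Lum, lumican, at 102 and 100.1 and then 397 and 502, and Dcn, decorin, at 5862 and 5851 and then 2913 and 3521. The summed tenocyte markers went from 11149 and 11220 to 7995 and 9278. The part of these cells in the matrix result was not tested.

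Matrix proteases held 2 genes with no count at rest. Of 29 proteases and inhibitors 17 were called higher and 8 lower, beside 27.6% and 26.6% of all genes, median 0.68. The share lower is close to the background. The number lower was 5 with all 12 samples in the fit and 4 on log2(TPM + 1). Mmp13, interstitial collagenase, had no count at day 0 and reached 714 and 961 CPM at day 7, at least 8034-fold higher than the floor of 3 counts. Mmp10, a stromelysin, also had no count at day 0 and reached 43.7 and 27.9 CPM, at least 344-fold higher. Mmp3, another stromelysin, rose from 4 and 4.53 to 113 and 186 CPM (log2 fold change 5.14 ± 0.27, edgeR adjusted p = 2.56e-06). Mmp14, the membrane-bound collagenase, rose from 196 and 191 to 745 and 762 CPM (log2 fold change 1.96 ± 0.055, edgeR adjusted p = 3.74e-08). Timp1, an inhibitor of these enzymes, rose from 8.31 and 6.35 to 108 and 109 CPM (log2 fold change 3.89 ± 0.12, edgeR adjusted p = 4.87e-08). Timp3, a matrix-bound inhibitor, fell from 1926 and 1897 to 622 and 602 CPM (log2 fold change -1.64 ± 0.059, edgeR adjusted p = 9.74e-08). Mmp13 also rose in wild type, from 0 to a mean of 114 CPM, and the interaction of a gene at 0 on day 0 in both genotypes is no estimate (edgeR adjusted p = 1). The promoter of Mmp13 is shown with its AP-1 letters TGACTCA or TGAGTCA in capitals, the site of Fos and Jun proteins, since Fos is described below (chr9:7272264-7272563, plus strand, RefSeq, GRCm38.p6).
Mmp13: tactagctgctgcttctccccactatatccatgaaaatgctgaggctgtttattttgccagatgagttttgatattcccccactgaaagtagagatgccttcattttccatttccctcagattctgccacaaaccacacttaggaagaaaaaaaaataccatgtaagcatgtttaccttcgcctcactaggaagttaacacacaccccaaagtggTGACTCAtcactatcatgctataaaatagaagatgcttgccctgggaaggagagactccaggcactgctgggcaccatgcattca
The AP-1 letters were in 3.33% of promoters called higher, 3.53% of those called lower and 3.61% of all. With a change of at least 2-fold they were in 4.55% of those higher and 3.43% of those lower.

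TGF-beta and BMP genes were called lower in 17 and higher in 12 of 36 tested, beside 26.6% and 27.6% of all genes, median -0.16. The share higher is near the background. The ligands split: Tgfb1 rose from 15.6 and 16.9 to 37.4 and 31.9 CPM (log2 fold change 1.10 ± 0.12, edgeR adjusted p = 7.33e-05), whereas Bmp4 fell from 67.3 and 67.8 to 17.4 and 18.9 CPM (log2 fold change -1.90 ± 0.083, edgeR adjusted p = 2.61e-07). Bmp6 fell by 1.35 (SE 0.062, edgeR adjusted p = 3.46e-07). The co-receptor Tgfbr3, betaglycan, fell from 294 and 293 to 93 and 79.1 CPM (log2 fold change -1.77 ± 0.084, edgeR adjusted p = 4.34e-07). Ltbp2, a latent TGF-beta binding protein of microfibrils, rose from 8.15 and 7.80 to 42.5 and 38.1 CPM (log2 fold change 2.34 ± 0.15, edgeR adjusted p = 2.75e-06). Fstl1, a follistatin-like secreted protein, rose by 1.56 (SE 0.055, edgeR adjusted p = 9.59e-08).

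Imprinted growth genes held the gene with the smallest p of all. Of 18 tested 8 were called higher and 3 lower, beside 27.6% and 26.6% of all genes. The median of the list was 0.72, or 0.43 with the member at the floor put at its bound. The median was 0.059 without knockout day 7 replicate 2, with 6 lower, 1.09 without knockout day 0 replicate 2, and 0.087 with only the 4 knockout samples in the fit. On log2(TPM + 1) it was 0.13. Mest, a paternally expressed gene of growing mesoderm, rose from 50.6 and 48.7 to 1834 and 1818 CPM (log2 fold change 5.20 ± 0.065, edgeR adjusted p = 1.23e-09). Igf2, insulin-like growth factor 2, rose from 71.6 and 75.5 to 519 and 469 CPM (log2 fold change 2.75 ± 0.078, edgeR adjusted p = 3.86e-08). Grb10, an adaptor that dampens insulin and IGF receptors, rose from 131 and 139 to 561 and 530.1 CPM (log2 fold change 2.02 ± 0.063, edgeR adjusted p = 5.14e-08). Peg3, a paternally expressed zinc finger protein, and Plagl1, a zinc finger regulator of this network, rose by 1.36 (SE 0.079) and 1.44 (SE 0.11), with edgeR adjusted p of 1.37e-06 and 8.37e-06. Dlk1, a secreted or membrane-bound relative of Notch ligands, rose from 6.86 and 7.30 to 25.9 and 24.2 CPM (log2 fold change 1.83 ± 0.12, edgeR adjusted p = 3.04e-06).

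Protein synthesis and turnover genes rose by small amounts but almost as a whole. Of 81 ribosomal protein genes 77 were called higher and 0 lower, median 0.88. Rps10 rose from 50.8 and 49.8 to 109 and 108 CPM (log2 fold change 1.11 ± 0.07, edgeR adjusted p = 2.20e-06). Rpsa rose from 33.4 and 24.3 to 81.4 and 79.5 CPM (log2 fold change 1.48 ± 0.13, edgeR adjusted p = 1.93e-05). Rps2 rose from 327 and 324 to 391 and 417 CPM (log2 fold change 0.31 ± 0.059, edgeR adjusted p = 0.0019). In wild type the same list had a median of 0.0097, with 14 called higher and 7 lower, and the interaction was called in 77 of 81, each time with a positive sign, beside 24.8% of all genes called in the interaction. The levels of Rps10 were 50.8 and 49.8 CPM in the knockout and a mean of 102 in wild type at day 0, but 109 and 108 and a mean of 110.1 at day 7, so the genotypes stood apart at day 0. The 77 interaction calls fell to 50 without wild-type day 7 replicate 2 and to 38 on log2(TPM + 1) with no filter. Ribosomal proteins have many near-identical copies between which estimated counts can be shared, for example 32 genes with stretches of at least 95% identity over 200 bases for Rps2, so single values are uncertain.

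Ribosome biogenesis factors rose too, 22 of 30 higher and 3 lower, median 0.50. Nop2, an rRNA methyltransferase, rose from 48.6 and 54.1 to 109 and 103 CPM (log2 fold change 1.05 ± 0.08, edgeR adjusted p = 7.26e-06). Dkc1, dyskerin, rose from 40.3 and 41.3 to 76 and 87.9 CPM (log2 fold change 1.01 ± 0.087, edgeR adjusted p = 1.56e-05). The wild-type median was 0.55. All 38 proteasome genes were called higher, median 0.54. Psma4 and Psma5 of the catalytic core rose, Psma4 from 77.9 and 74.1 to 159 and 164 CPM (log2 fold change 1.09 ± 0.065, edgeR adjusted p = 1.66e-06) and Psma5 from 82.9 and 82.5 to 160.3 and 167 CPM (log2 fold change 0.99 ± 0.059, edgeR adjusted p = 1.68e-06). The regulatory subunit Psmd6 rose by 0.87 (SE 0.058, edgeR adjusted p = 2.89e-06).

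**Figure D3:**
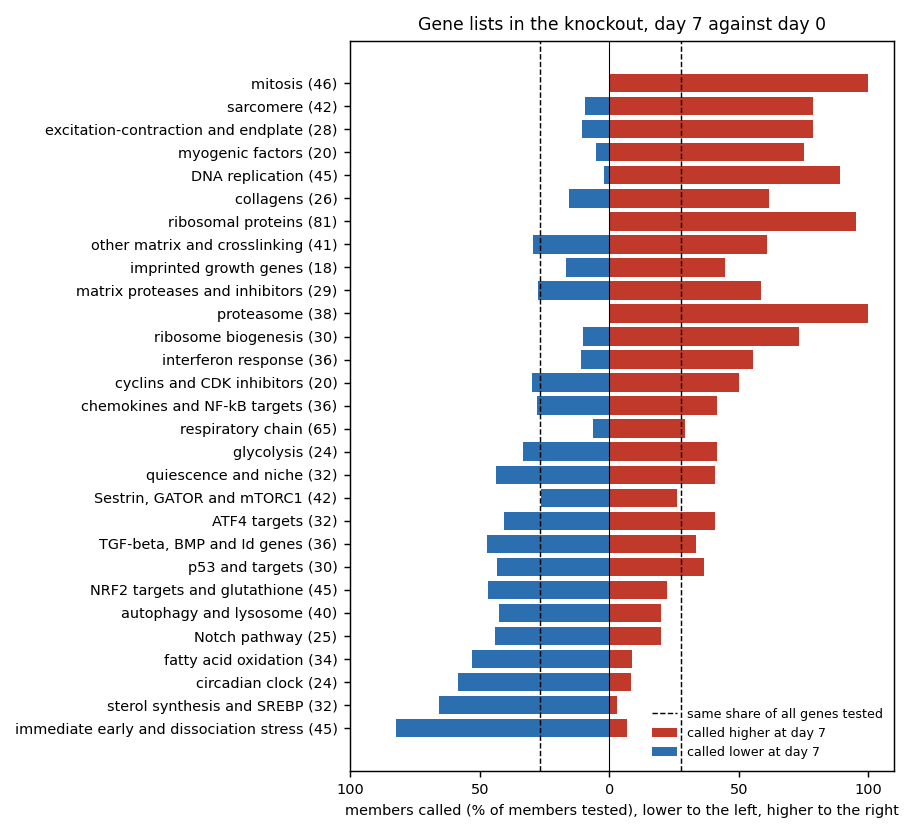
Share of the tested members of 29 gene lists (number tested in brackets, ordered by median change) called higher (red, right) or lower (blue, left) in the knockout at day 7, with dashed lines at the shares of all genes tested. Mitosis and proteasome lists were higher in all members, and the immediate early list was lower in 37 of 45.

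Genes of lipid use were lower more often than higher. Of 34 fatty acid oxidation genes 18 were called lower, beside 26.6% of all genes, and 3 higher, median -0.41. Ech1, an enoyl-CoA isomerase, fell from 426 and 446 to 154 and 157 CPM (log2 fold change -1.49 ± 0.06, edgeR adjusted p = 1.74e-07). Cpt1a and Cpt1b, the carnitine transferases that admit fatty acids to mitochondria, both fell. Cpt1a fell from 175 and 181 to 105 and 91.4 CPM (log2 fold change -0.86 ± 0.089, edgeR adjusted p = 4.74e-05). Cpt1b fell from 48.7 and 52.7 to 11.3 and 4.38 CPM (log2 fold change -2.68 ± 0.39, edgeR adjusted p = 8.44e-04). Ppargc1a, the coactivator of mitochondrial genes, fell from 32.2 and 29.9 to 11.9 and 10.1 CPM (log2 fold change -1.49 ± 0.13, edgeR adjusted p = 1.42e-05). Counts of Cpt1b are uncertain, since another gene model, Gm44502, shares 94.8% of its transcript. Cpt1a went the other way in wild type, from a mean of 67.9 to 92.4 CPM, and the interaction was -1.30 (edgeR adjusted p = 4.11e-04). 11 members had a negative and 2 a positive interaction, beside 24.8% of all genes called in the interaction. These 13 calls fell to 7 without knockout day 0 replicate 2, wild-type day 0 replicate 1 or 2 or wild-type day 7 replicate 2, and to 8 with all 12 samples.

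Sterol synthesis and SREBP targets were called lower in 21 and higher in 1 of 32, median -0.65, the exception being Dhcr7 (0.59), named after its value was seen. Idi1, isopentenyl diphosphate isomerase, fell from 130.4 and 119 to 35.1 and 40.0 CPM (log2 fold change -1.73 ± 0.11, edgeR adjusted p = 1.87e-06). Sqle, squalene epoxidase, fell from 110.3 and 116 to 52.9 and 48.9 CPM (log2 fold change -1.15 ± 0.083, edgeR adjusted p = 4.82e-06). Scd1, a fatty acid desaturase, fell from 115 and 123 to 39.5 and 30.6 CPM (log2 fold change -1.76 ± 0.12, edgeR adjusted p = 3.10e-06). Hmgcs1, the cytosolic synthase that opens the pathway, fell from 123 and 147 to 46.4 and 52.6 CPM (log2 fold change -1.45 ± 0.12, edgeR adjusted p = 1.35e-05). The list fell in wild type as well, median -0.82. The interaction was positive in 12 and negative in 3 members, beside 24.8% of all genes called in it. These 15 calls fell to 9 without knockout day 0 replicate 2, wild-type day 0 replicate 1 or 2 or wild-type day 7 replicate 2, and the knockout median was -0.35 on log2(TPM + 1).

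Glycolysis genes split into 10 higher and 8 lower of 24, beside 27.6% and 26.6% of all genes, median 0.02. The glucose transporters Slc2a1, Slc2a3 and Slc2a4 fell by 1.06 (SE 0.072), 1.33 (SE 0.078) and 1.54 (SE 0.087), with edgeR adjusted p of 3.59e-06, 1.37e-06 and 1.10e-06. Hk2, the hexokinase of muscle, rose from 15.5 and 12.8 to 54.6 and 59.3 CPM (log2 fold change 2.01 ± 0.11, edgeR adjusted p = 1.20e-06). Respiratory chain genes were mostly not called, 42 of 65, with 19 higher and 4 lower and a median of 0.16. The share higher, 29.2%, is near the 27.6% of all genes, and 35.4% of members were called beside 54.2% of all genes. Cox5a of complex IV rose from 80.9 and 74.8 to 130.5 and 137 CPM (log2 fold change 0.78 ± 0.066, edgeR adjusted p = 1.42e-05). The number higher of the list was 32 without knockout day 0 replicate 1, 10 without knockout day 0 replicate 2, 11 without knockout day 7 replicate 1 and 37 on log2(TPM + 1). The number lower was 8 without knockout day 0 replicate 2, 2 without knockout day 0 replicate 1, and 1 on log2(TPM + 1), with all 12 samples or with the 4 compared alone.

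Genes induced early by stress, many also induced by tissue digestion, were lower at day 7. Of 45 members 37 were called lower and 3 higher, median -0.89. Fos fell from 5463 and 5871 to 1784 and 1719 CPM (log2 fold change -1.69 ± 0.06, edgeR adjusted p = 9.59e-08). Egr1 fell from 4156 and 3956 to 1597 and 1512 CPM (log2 fold change -1.38 ± 0.058, edgeR adjusted p = 2.16e-07). Atf3 fell from 1797 and 1858 to 708 and 679.5 CPM (log2 fold change -1.40 ± 0.063, edgeR adjusted p = 3.02e-07). Nr4a2, an orphan nuclear receptor, fell from 1828 and 1868 to 633 and 625 CPM (log2 fold change -1.55 ± 0.065, edgeR adjusted p = 1.99e-07). Gadd45b fell from 1480 and 1461 to 521 and 571 CPM (log2 fold change -1.43 ± 0.065, edgeR adjusted p = 3.22e-07). Digestion times of the tissues are not given. Injury and handling cannot be told apart here. The 3 higher, named after their values were seen, were Gadd45a, Klf2 and Fosl1 (0.81, 0.30 and 0.27).

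Antioxidant genes fell in part. Among 45 NRF2 targets and glutathione genes 21 were called lower and 10 higher, beside 26.6% and 27.6% of all genes, median -0.18. Gstm1, a glutathione transferase, fell from 529 and 508 to 152 and 156 CPM (log2 fold change -1.75 ± 0.057, edgeR adjusted p = 6.08e-08). Sod3, the extracellular superoxide dismutase, fell from 738 and 812 to 214 and 194 CPM (log2 fold change -1.93 ± 0.076, edgeR adjusted p = 1.55e-07). Fth1, ferritin heavy chain, fell from 2750 and 2542 to 1167 and 1153 CPM (log2 fold change -1.19 ± 0.057, edgeR adjusted p = 4.49e-07). Gsto1, another transferase, rose from 30.3 and 30.1 to 62.2 and 64.4 CPM (log2 fold change 1.07 ± 0.085, edgeR adjusted p = 9.20e-06). Nfe2l2, which encodes NRF2, overlapped between days at 259.7 and 277 and 259.9 and 266 CPM. It fell in wild type, from a mean of 349.9 to 202 CPM, with an interaction of 0.76 (edgeR adjusted p = 6.71e-04). The list had a wild-type median of -0.78. Of its members 22 had a positive interaction and 1 a negative one, beside 24.8% of all genes called in the interaction. These 23 calls fell to 10 with all 12 samples and to 13 on log2(TPM + 1) with no filter.

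ATF4 targets, the genes of the amino acid response, divided, 13 higher and 13 lower of 32, with 8 higher without knockout day 0 replicate 2. Of all genes 27.6% were called higher and 26.6% lower. Pycr1 of proline synthesis rose from 2.39 and 2.62 to 33.8 and 37.1 CPM (log2 fold change 3.82 ± 0.14, edgeR adjusted p = 1.25e-07), and Mthfd2 of mitochondrial folate metabolism rose from 9.88 and 10.6 to 45.5 and 41.6 CPM (log2 fold change 2.09 ± 0.11, edgeR adjusted p = 7.12e-07). Slc7a5, the large neutral amino acid transporter, rose from 69.1 and 71.7 to 218 and 201 CPM (log2 fold change 1.57 ± 0.079, edgeR adjusted p = 5.73e-07). Slc38a2, a transporter of small neutral amino acids, fell from 1293 and 1325 to 751 and 729 CPM (log2 fold change -0.82 ± 0.056, edgeR adjusted p = 3.25e-06), and Atf4 itself fell from 593 and 595 to 409.9 and 439 CPM (log2 fold change -0.49 ± 0.056, edgeR adjusted p = 9.25e-05). Atf3, which belongs to this list and to the immediate early list, is counted in both.

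The p53 list divided as well, 11 higher and 13 lower of 30, beside 27.6% and 26.6% of all genes, median -0.16. Without knockout day 0 replicate 2 there were 7 higher and the median was -0.079, and it was -0.049 without knockout day 7 replicate 2 and -0.00043 on log2(TPM + 1). Pmaip1, the pro-apoptotic protein Noxa, rose from 8.50 and 8.82 to 60.1 and 62.8 CPM (log2 fold change 2.83 ± 0.11, edgeR adjusted p = 1.77e-07). Trp53 rose by 0.54 (SE 0.062, edgeR adjusted p = 8.97e-05), and Perp, a membrane protein target, fell from 99.9 and 103 to 32.6 and 34 CPM (log2 fold change -1.61 ± 0.099, edgeR adjusted p = 1.91e-06). Autophagy and lysosome genes were called lower in 17 and higher in 8 of 40, beside 26.6% and 27.6% of all genes, median -0.18. On log2(TPM + 1) 8 were lower and 10 higher, with a median of -0.012, and with all 12 samples 11 were lower. Ctsk, cathepsin K, which degrades collagen, rose from 54.5 and 52.8 to 252 and 303 CPM (log2 fold change 2.37 ± 0.091, edgeR adjusted p = 1.34e-07). Tfeb, the activator of lysosomal genes, fell from 43.3 and 42 to 22.7 and 20.1 CPM (log2 fold change -0.99 ± 0.098, edgeR adjusted p = 3.38e-05). Becn1, a nucleator of autophagosomes, fell by 0.67 (SE 0.062, edgeR adjusted p = 2.42e-05), and the kinase Ulk1, at 90.5 and 95.7 and then 87.6 and 81.8 CPM, was not called.

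Among 42 genes of the Sestrin, GATOR and mTORC1 circuit 11 were called higher and 11 lower, each close to the background shares of 27.6% and 26.6%. Eif4ebp1, the translation repressor that mTORC1 phosphorylates, rose from 22.4 and 21.1 to 75.5 and 78.8 CPM (log2 fold change 1.82 ± 0.09, edgeR adjusted p = 5.20e-07). Deptor, an inhibitor that binds mTOR, rose from 85.1 and 84.4 to 127 and 134 CPM (log2 fold change 0.63 ± 0.063, edgeR adjusted p = 3.82e-05), and Sec13 of GATOR2 rose by 0.60 (SE 0.059, edgeR adjusted p = 3.55e-05). Rragd, a Rag GTPase, fell from 43 and 41.6 to 23.1 and 21 CPM (log2 fold change -0.94 ± 0.11, edgeR adjusted p = 8.42e-05), a call lost on the TPM and regularised log scales. In wild type it went from a mean of 24.3 to 34.2 CPM, with an interaction of -1.43 (edgeR adjusted p = 6.09e-04). Fnip2, a partner of folliculin, fell from 22.5 and 27.8 to 10.1 and 8.10 CPM (log2 fold change -1.46 ± 0.18, edgeR adjusted p = 1.18e-04).

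Of 36 chemokines and NF-kB targets 15 were called higher and 10 lower, beside 27.6% and 26.6% of all genes, median 0.17. The monocyte attractants Ccl2, Ccl7 and Ccl8 rose. Ccl2 rose from 16.8 and 13.7 to 63.8 and 64.3 CPM (log2 fold change 2.07 ± 0.12, edgeR adjusted p = 1.32e-06). Ccl7 rose from 6.67 and 5.44 to 23.5 and 24.4 CPM (log2 fold change 1.98 ± 0.15, edgeR adjusted p = 5.86e-06). Ccl8 rose from 0.346 and 0.266 to 38.9 and 49 CPM (log2 fold change 7.13 ± 0.27, edgeR adjusted p = 1.28e-07). Cxcl10, an interferon-induced attractant, rose from 22.6 and 22.5 to 82.4 and 86 CPM (log2 fold change 1.90 ± 0.076, edgeR adjusted p = 1.61e-07). Nfkbia, the inhibitor of NF-kB, fell from 999 and 1011 to 555 and 575 CPM (log2 fold change -0.83 ± 0.056, edgeR adjusted p = 3.23e-06). The interaction was called in 19 members, all positive, beside 24.8% of all genes, and in 11 members with all 12 samples. In wild type Ccl2 stood at means of 52.2 and 41.8 CPM at days 0 and 7, an interaction of 2.38 (edgeR adjusted p = 9.36e-05). Macrophages make Ccl8 as well, and their markers Csf1r and C1qb were at 19.1 and 4.98 and 30.4 and 8.74 CPM at day 7. The part of macrophages in this result was not tested.

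Interferon response genes were called higher in 20 and lower in 4 of 36, median 0.49. Ifit1, an antiviral RNA binder, rose from 31.2 and 35.6 to 127 and 123 CPM (log2 fold change 1.90 ± 0.14, edgeR adjusted p = 8.43e-06). Oasl2 rose by 1.63 (SE 0.093, edgeR adjusted p = 1.24e-06) and Bst2, tetherin, by 1.23 (SE 0.092, edgeR adjusted p = 6.03e-06). Irf1, an interferon regulatory factor, fell from 965 and 1000 to 483 and 478 CPM (log2 fold change -1.03 ± 0.052, edgeR adjusted p = 5.92e-07). On the regularised log scale 10 members were called higher. With all 12 samples in the fit 7 were, and Ifit1 and Oasl2 were no longer called.

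Clock genes were lower more often than higher, with 14 of 24 lower (9 to 14 over 19 alternatives) and 2 higher, median -0.42. Nr1d1, the repressor REV-ERB alpha, was one of the exceptions and rose from 43.4 and 44.7 to 136 and 140.1 CPM (log2 fold change 1.65 ± 0.061, edgeR adjusted p = 1.11e-07). In wild type it fell from a mean of 355 to 150.0 CPM, and the interaction of 2.89 (edgeR adjusted p = 2.07e-06) had the smallest p of all positive ones. The period gene Per2 fell from 47.4 and 49.6 to 16.2 and 13.8 CPM (log2 fold change -1.69 ± 0.12, edgeR adjusted p = 4.40e-06), and the cryptochromes Cry1 and Cry2 fell by 1.01 (SE 0.075) and 1.27 (SE 0.10), with edgeR adjusted p of 5.91e-06 and 1.03e-05. The other gene called higher, Dbp, was named after its value was seen (0.94). The hour of collection is not given, so time of day and injury cannot be told apart.

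By the rule for genes of any function, the 15 rising genes with the smallest p held 4 not met above. Capn6, a calpain without protease activity, rose from 44.8 and 47.5 to 802 and 801 CPM (log2 fold change 4.12 ± 0.064, edgeR adjusted p = 3.21e-09), and the secreted C1q and TNF-related proteins C1qtnf3 and C1qtnf6 rose too. C1qtnf3 rose from 26.8 and 25.7 to 1718 and 2116 CPM (log2 fold change 6.19 ± 0.12, edgeR adjusted p = 7.31e-09). C1qtnf6 rose from 5.54 and 5.67 to 122 and 124 CPM (log2 fold change 4.46 ± 0.083, edgeR adjusted p = 7.31e-09). Lrrc17 rose from 14.2 and 15.7 to 244 and 261 CPM (log2 fold change 4.08 ± 0.088, edgeR adjusted p = 1.11e-08). From the floor of at most 3 counts in each day 0 sample, Smpx, a small protein of striated muscle, reached 51.5 and 32.2 CPM, at least 401-fold higher, and Adprhl1 reached 8.53 and 9.13 CPM, at least 84.7-fold higher. In all 293 genes were called higher from that floor and 109 were called lower to it.

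The 15 falling genes with the smallest p were a mixed group at rest. Secreted or transport proteins led it. Apod, a lipid-binding lipocalin, fell from 1913 and 1874 to 598 and 597 CPM (log2 fold change -1.66 ± 0.05, edgeR adjusted p = 4.67e-08). Cp, the copper protein ceruloplasmin, fell from 262 and 274 to 42.8 and 47.7 CPM (log2 fold change -2.57 ± 0.08, edgeR adjusted p = 5.13e-08). Sfrp5, a secreted antagonist of Wnt, fell from 596 and 646 to 63.8 and 53.7 CPM (log2 fold change -3.40 ± 0.098, edgeR adjusted p = 4.02e-08). Abca8a, a lipid transporter, fell from 503 and 519 to 57.8 and 55 CPM (log2 fold change -3.18 ± 0.069, edgeR adjusted p = 1.14e-08). Efemp1, fibulin-3 of the matrix, fell from 176 and 173 to 16 and 14.4 CPM (log2 fold change -3.52 ± 0.083, edgeR adjusted p = 1.66e-08). Reln, the secreted glycoprotein reelin, fell from 92.7 and 99.6 to 7.65 and 7.61 CPM (log2 fold change -3.66 ± 0.10, edgeR adjusted p = 3.38e-08). The naming rule admitted only genes whose days did not overlap, so the lack of overlap in these 6 genes is no result.

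Tsc22d3, the glucocorticoid-induced leucine zipper protein, fell from 683 and 651 to 153 and 148 CPM (log2 fold change -2.15 ± 0.057, edgeR adjusted p = 3.00e-08). Gatm, the first enzyme of creatine synthesis, fell from 331 and 340.3 to 92.1 and 92.8 CPM (log2 fold change -1.86 ± 0.056, edgeR adjusted p = 4.67e-08). Bche, butyrylcholinesterase, fell from 318 and 331 to 45.5 and 40.4 CPM (log2 fold change -2.92 ± 0.084, edgeR adjusted p = 4.01e-08). Art3, a relative of the ADP-ribosyltransferases, fell from 589 and 593 to 115 and 110.3 CPM (log2 fold change -2.39 ± 0.059, edgeR adjusted p = 2.19e-08). Rasgef1c, a Ras exchange factor, fell from 200.2 and 225 to 29.9 and 26.5 CPM (log2 fold change -2.91 ± 0.09, edgeR adjusted p = 5.08e-08). Cdh19, a cadherin of the Schwann lineage and one of the Schwann markers, fell from 390.4 and 397 to 43.6 and 48.1 CPM (log2 fold change -3.10 ± 0.09, edgeR adjusted p = 4.08e-08). Gpm6b, a proteolipid of glia and neurons, fell from 556 and 546 to 149 and 140.0 CPM (log2 fold change -1.93 ± 0.06, edgeR adjusted p = 5.13e-08). Mbp fell beside them from 1776 and 1808 to 236 and 173 CPM. The part of Schwann cells in these changes was not tested.

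Of the 6 genes that fell to the floor with the highest level at rest, Arnt2, a partner of bHLH-PAS factors, went from 16 and 8.71 CPM to 0 and 0, at least 141-fold lower. The others were below 7 CPM at rest. Hist2h2aa1 went from 5.29 and 4.98 to 0 and 0 and shares its whole transcript with other gene models at 95% identity or more, so its reads are uncertain. Olfm2 went from 1.07 and 4.53, unequal at rest, to 0 and 0, Slc26a10 from 2.99 and 2.55 to 0 and 0, Tyk2 from 2.64 and 3.84 to 0 and 0.0996 and Havcr1 from 2.86 and 2.40 to 0.0757 and 0.0664. Tyk2 lost its call in DESeq2.

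In wild-type cells 8456 genes were called at day 7, 54.0% of those tested, and the comparisons share no sample. 5616 genes were called in the same direction in both genotypes, 66.1% of the knockout calls and 66.4% of the wild-type calls, and 365 in opposite directions. Called in the knockout only were 2516 genes, of which 1112 were also called in the interaction, the test of whether the change itself differed. Across genes the changes correlated with a Pearson r of 0.538 and a Spearman rho of 0.618. The interaction was called for 3887 genes or 24.8%, 2012 with a positive and 1875 with a negative sign. This number fell to 2141 with all 12 samples in the fit and to 2183, 2248 and 2278 without knockout day 0 replicate 2 or wild-type day 0 replicate 1 or 2.

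**Figure D4:**
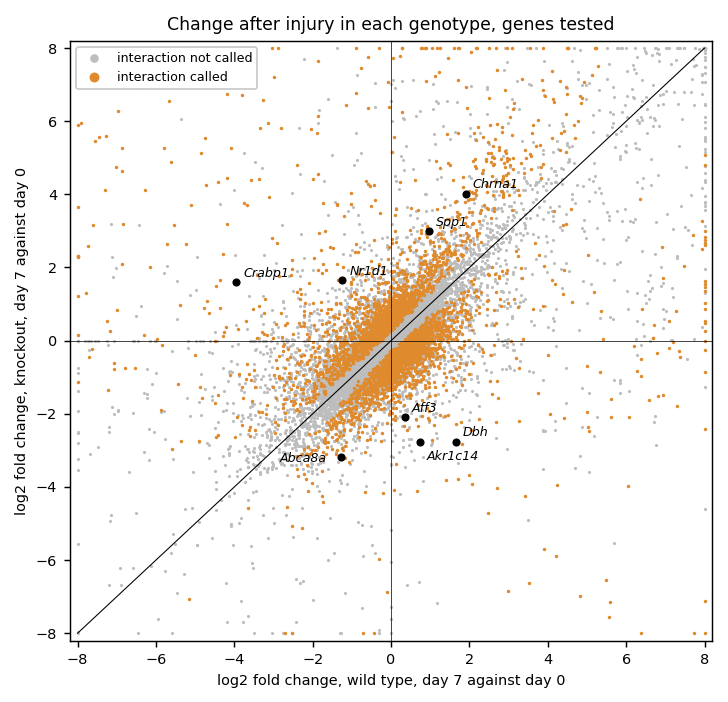
Log2 fold change of each tested gene from day 0 to day 7 in the knockout (vertical) against wild type (horizontal), orange where the interaction was called, with a line of equal change. Values beyond 8 on either axis, 178 genes, are drawn at the edge. Chrna1, Spp1, Nr1d1 and Crabp1 lie above the line and Abca8a, Aff3, Akr1c14 and Dbh below it.

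Interactions were mostly positive in the mitosis, myogenic factor and sarcomere lists. The mitosis list rose by a median of 4.83 in the knockout and 2.85 in wild type, with 32 positive and 2 negative interactions. Ccnb1 reached similar levels at day 7, 111 and 111 CPM in the knockout and a mean of 83.8 in wild type, but started from 2.36 and 2.51 against a mean of 13.3 (interaction 2.86, edgeR adjusted p = 4.44e-05). Chrna1 started lower in the knockout, 25.2 and 25.9 against a mean of 74.1, and ended higher, 393 and 435 against 277 (interaction 2.12, edgeR adjusted p = 2.34e-05). Myogenic factors had 10 positive and 4 negative interactions and sarcomere genes 18 and 2. The 14 myogenic calls fell to 6 with all 12 samples, and the 20 sarcomere calls to 13 without knockout day 0 replicate 1. The mitosis count of called interactions, 34 in all, fell to 17 with all 12 samples and to 21 on log2(TPM + 1) with no filter.

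**Figure D5:**
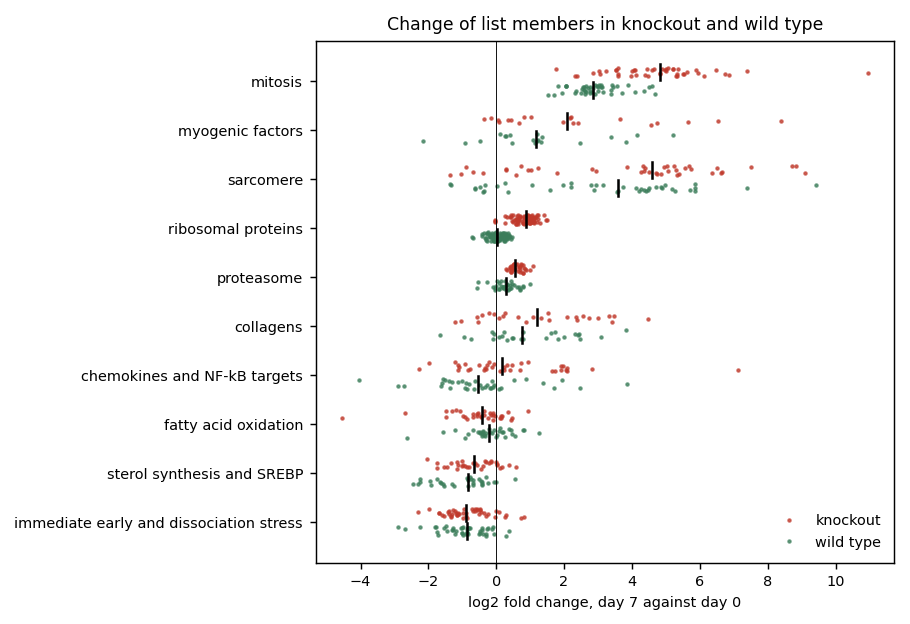
Log2 fold change from day 0 to day 7 of the tested members of 10 lists, red for the knockout and green for wild type, 1 point per gene, spread vertically for sight only, with a bar at the median. Fitted values of genes at the floor are included. Ribosomal proteins have a median of 0.88 in the knockout and 0.0097 in wild type.

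The 5 genes with the smallest interaction p in each direction show where the genotypes differed. Crabp1, a carrier of retinoic acid, rose in the knockout from 5.54 and 4.87 to 14.4 and 17.3 CPM (log2 fold change 1.60 ± 0.14, edgeR adjusted p = 1.80e-05) while its mean fell from 54.5 to 3.53 CPM in wild type. Spp1 rose in both, to 321 and 326 CPM in the knockout and a mean of 149.8 in wild type. Akr1c14, a hydroxysteroid dehydrogenase, fell in the knockout from 35.8 and 33.9 to 5.10 and 5.11 CPM (log2 fold change -2.77 ± 0.11, edgeR adjusted p = 1.39e-07) and had means of 24.3 and 40.4 CPM in wild type. Dbh, dopamine beta-hydroxylase, fell from 26.9 and 25.1 to 3.08 and 4.65 CPM (log2 fold change -2.76 ± 0.20, edgeR adjusted p = 5.65e-06), with means of 6.13 and 19.2 in wild type. Aff3, a nuclear protein of the super elongation complex family, fell from 94.4 and 98.8 to 22.2 and 22.9 CPM (log2 fold change -2.10 ± 0.11, edgeR adjusted p = 6.41e-07). Car12, a membrane carbonic anhydrase, fell from 113 and 113 to 21.6 and 21.3 CPM (log2 fold change -2.40 ± 0.091, edgeR adjusted p = 1.25e-07), against means of 40.3 and 51.5 for Aff3 and 71.3 and 53.9 for Car12 in wild type. Sesn1 had an interaction of -0.96 (edgeR adjusted p = 0.00547). Skin markers, which summed to 304 and 319 CPM in wild type at day 0 and to 6.76 and 6.96 in the knockout, and red cell markers, 921 and 933 against 212 and 199, also set the day 0 samples of the genotypes apart. Their part in the interaction was not tested.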

How the data were processed

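RNA of sorted cells was amplified with SMART-Seq v4, made into Nextera XT libraries and read as 76-base single ends, per the labels' protocols. The authors deposited 3 tables of 30154 genes. The first holds estimated counts per gene as deposited, not normalized. Kallisto 0.46.1, mm10 and GRCm38.p6 are named, without their roles, per the submitters' processing notes. The second holds TPM per gene, scaled for length and depth by the authors. The third table holds regularised log2 values that the authors, by the name they gave the table, corrected for batch. The batch is not named. The kit does not mark strand, so overlapping and antisense genes are uncertain.

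Estimated counts were rounded and fitted for the 8 samples of days 0 and 7 in 4 groups, with edgeR 4.0.16 (filterByExpr, TMM scaling, quasi-likelihood test, Benjamini-Hochberg adjustment over all 15672 genes tested, threshold 0.05) in R 4.3.3. The interaction is the knockout change minus the wild-type change. The 4 day 21 samples were left out because Sesn2 goes against the label of 2 of them. A gene is at the floor when both samples of a day hold at most 3 counts. The members and lists were chosen with earlier results of these data known.

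Genes named are the 15 rising and 15 falling with the smallest p among those changed at least 2-fold without overlap between days, with 10 CPM or more on the higher day and over 3 counts on the lower; the 6 most abundant from and to the floor; the 5 each way with the smallest interaction p; up to 6 per list by adjusted p after at most 2 defining members; and Sesn1, Sesn2 and Sesn3. Other genes named, the cell type markers included, were chosen after their values were seen. Of 242 named genes, 56 share at least 200 bases at 95% identity with another gene, among them Acat2, Ccnb1, Igf2, Gstm1, Mcm7, Psma4, Psma5 and Rps10, and their counts are uncertain. Of the list symbols 8 matched no row. RefSeq gives 3 of these as other names of Atp5f1, Atp5g1 and Atp5g3, which were tested, and the others are not analysed here. Alternatives were DESeq2 1.42.0, median-of-ratios factors, other filters, all 12 or only 4 samples, limma 3.58.1 on log2 TPM and on the authors' regularised values, a replicate block and each sample left out. The edgeR and limma steps were tested on simulated data. Results for some genes are not reported here.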

Additional observations from a re-analysis of the deposited data

Results flagged for a closer look

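The interaction test found a different change in the 2 genotypes for 3887 genes. Values here are the knockout change minus the wild-type change on the log2 scale, each with its edgeR adjusted p. Positive were Nr1d1 at 2.89 (2.07e-06), Crabp1 at 5.55 (7.80e-06), Spp1 at 2.03 (2.34e-05), Chrna1 at 2.12 (2.34e-05) and Lrrc17 at 2.08 (4.44e-05). Negative were Akr1c14 at -3.50 (1.27e-05), Abca8a at -1.91 (2.34e-05), Aff3 at -2.45 (6.35e-05), Car12 at -1.99 (6.35e-05) and Dbh at -4.41 (7.37e-05). Groups of 2 samples are too small for a test of an outlying sample.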

How the results depend on the processing

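Of the 242 genes named, 232 were called, and none of these changed direction under any alternative run. Of their gene and setting pairs 4347 kept the call and 43 lost it, and 9 pairs of the 10 genes not called gained one. Among these genes the calls lost most often were those of Acat2 (12 of 19 settings) and Spry1 (8 of 19), and Fasn, Rragd, Map1lc3b and Ulk2 lost theirs on log2 TPM. With Ifit1, Oasl2 and Sesn2 the call was lost with all 12 samples, and for Fbl without knockout day 0 replicate 2; the cause was not tested. Knockout calls numbered 7450 to 8522 over the other alternatives and 6868 to 8369 with 1 sample left out (3525 to 4308 higher, 3343 to 4062 lower), and wild-type calls 6573 to 9144. Requiring a 2-fold change left 3848 knockout calls (1854 higher, 1994 lower), 3799 in wild type and 1488 in the interaction, by construction. Interaction calls numbered 2141 with all 12 samples, 2299 on log2(TPM + 1) with no filter, and 2183 to 4404 with 1 sample left out, the lowest without knockout day 0 replicate 2; the cause was not tested. With the replicate number as a replicate block, calls numbered 8201 in the knockout (4178 higher, 4023 lower), 8115 in wild type and 3341 in the interaction. Same-numbered samples did not deviate together (correlations -0.15 to 0.040). This cannot show whether samples shared a batch, since a batch need not follow the replicate number. Medians near 0 changed sign under some setting for the ATF4, glycolysis, quiescence and Sestrin lists. On log2(TPM + 1) with no filter medians moved nearer 0 by over 1.5 times for the myogenic (1.22), fatty acid oxidation (-0.26), Notch (-0.22), clock (-0.21), p53 (-0.00043) and TGF-beta (-0.014) lists, and the respiratory chain median rose to 0.33. On the regularised log scale the medians were 1.14 for the myogenic, 1.91 for the endplate, 0.43 for the protease and 0.25 for the cyclin list.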

Other observations

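In the 4 day 21 samples, Sesn2 stood at 9.86 CPM in the library labelled knockout replicate 1, 108 in that labelled knockout replicate 2, 8.92 in that labelled wild-type replicate 1 and 82.1 in that labelled wild-type replicate 2.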
